A study of Mus musculus with 12 samples.

Results

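The unfolded protein response was examined through 30 genes in RAW264.7, a mouse cell line that resembles macrophages. They are the genes whose symbol in the deposited expression table equals 1 of 30 listed symbols. The symbols were listed for their known place in the response, with earlier results of these data known. All 30 were found among 53801 gene records, and all 30 passed the filter on low values (1 FPKM or more in 3 or more of the 12 libraries), as did 13078 genes in all. FPKM counts sequenced fragments relative to transcript length and to the fragments mapped in a library. It is a level per length, so levels can be set roughly side by side between genes. Between libraries FPKM also depend on the make-up of each library, so changes depend on the scaling, as described below for LPS.

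RNA-seq was done on 4 groups of 3 libraries. Cells given Synbindin siRNA (silenced cells) and cells given a control siRNA (control cells) were each collected after 4 h with LPS at 100 ng/ml and without LPS, which the titles call 0 h. All were RAW264.7 cells at passages 3-5, grown in the same medium, and no library came from cells without an siRNA. Synbindin is the protein of Trappc4 and a subunit of TRAPP, a complex that tethers vesicles on their way between the endoplasmic reticulum (ER) and the Golgi. LPS is a component of the outer membrane of Gram-negative bacteria that macrophages sense through Toll-like receptor 4. RAW264.7 is 1 transformed line, so the 4 groups share 1 genetic background, and the labels do not say whether the replicates were separate cultures or transfections. The p-values therefore measure the spread between these libraries, which may be technical.

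When unfolded proteins build up in the ER, sensors in its membrane start a response that lowers the load and raises the folding capacity. IRE1 (gene Ern1) splices the mRNA of the transcription factor XBP1, PERK (gene Eif2ak3) phosphorylates the translation factor eIF2 and so favours translation of ATF4, and ATF6 moves to the Golgi, where proteases free its transcription factor domain. The targets include chaperones, disulfide isomerases, the machinery of ER-associated degradation (ERAD) and genes for amino acid supply and recovery of translation, and several eIF2 kinases other than PERK feed into the ATF4 branch, which is also called the integrated stress response. In macrophages, Toll-like receptor signals are known to touch parts of this network, among them IRE1, XBP1 and ATF3.

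Trappc4 (ENSMUSG00000032112), the silenced gene, had 5.86, 7.71 and 8.26 FPKM in silenced and 13.8, 15.7 and 9.45 FPKM in control cells after LPS. Without LPS it had 4.35, 7.17 and 6.15 FPKM in silenced and 14.1, 13.1 and 12.5 FPKM in control cells. The silenced libraries were the lower ones at both times without overlap, with 56.1% of the control mean left after LPS and 44.5% without it (2-sided exact permutation test, p = 0.1 each, the smallest that 3 against 3 libraries allow). The limma test used below for all genes did not call Trappc4 (adjusted p = 0.12 after LPS and 0.0558 without LPS). Each library had 11672 to 12351 genes at 1 FPKM or more. Of 10 macrophage markers, 8 were at 1 FPKM or more in all 12 libraries, Itgam and Mrc1 being the exceptions, and none of the 18 markers of B cells, T cells, fibroblasts and epithelium reached 1 FPKM in any library. The summed level of the macrophage markers was 2050 to 2780 FPKM in silenced and 1530 to 1910 FPKM in control cells after LPS, and 2190 to 2650 FPKM in silenced and 1600 to 1730 FPKM in control cells without LPS.

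The most abundant transcripts were those of the ER chaperones. Hspa5, which encodes BiP, the main ER chaperone of the Hsp70 family, averaged 319.6 FPKM in silenced and 291 FPKM in control cells after LPS, the highest mean of the 30 in both groups. Without LPS the first place was held by Hsp90b1, the ER chaperone of the Hsp90 family, at 294 ± 7.15 FPKM in silenced and 243 ± 30.1 FPKM in control cells (SD, n = 3 each). It was closely followed there by Calr, which encodes the lectin chaperone calreticulin, at 277 ± 30.04 and 240.1 ± 41.1 FPKM in silenced and control cells, so that the order of these chaperones was within the spread between libraries. At the low end, Eif2ak3 had the lowest mean after LPS (2.26 ± 0.11 FPKM in silenced and 2.16 ± 0.328 FPKM in control cells). Trib3, a pseudokinase gene, had the lowest without LPS (2.22 ± 0.739 and 1.9 ± 0.894 FPKM in silenced and control cells). Atf3, a stress-induced transcription factor that restrains inflammatory genes in macrophages, took place 4 of 30 in silenced and 5 of 30 in control cells after LPS. Together the 30 genes made up 0.554% ± 0.0389 of all FPKM in silenced and 0.535% ± 0.0301 in control cells after LPS, and 0.599% ± 0.0172 in silenced and 0.507% ± 0.0323 in control cells without LPS (SD, n = 3 each).

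**Figure D1:**
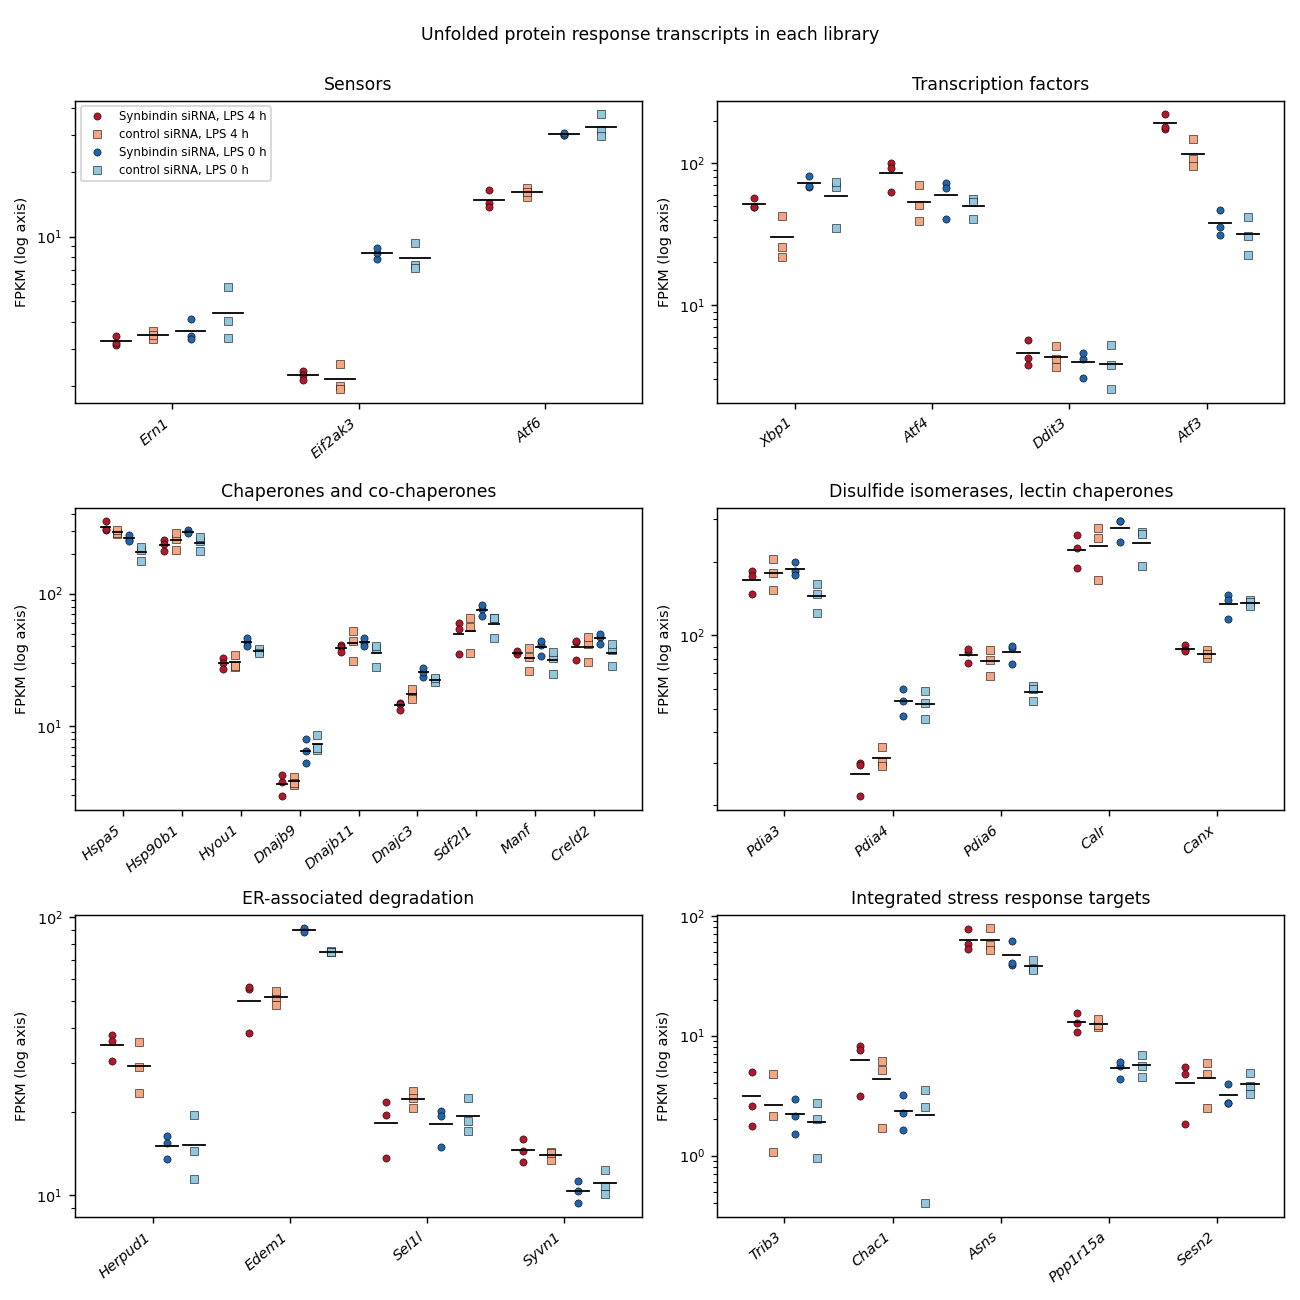
FPKM of the 30 genes in each library on log axes, in 6 panels by role. Points are libraries, coloured by group, and the line is the mean of 3. Eif2ak3, Atf6, Pdia4, Canx and Edem1 lie lower and Atf3, Herpud1 and Ppp1r15a higher after LPS with both siRNAs, while the silenced and control points of the same time mostly overlap.

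The promoters of these genes carry short DNA elements through which the response acts in mammalian cells. Windows from 250 bases before to 50 bases after the RefSeq start site (build GRCm38.p6) were held for 27 of the 30 genes, the others being Atf6, Hyou1 and Manf. The windows were searched on both strands for the ER stress response element ERSE (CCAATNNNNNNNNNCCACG), bound by ATF6 together with NF-Y, for ERSE-II (ATTGG, 1 base of any kind, then CCACG), for the core of the XBP1 element UPRE (TGACGTG), and for the C/EBP-ATF response element CARE (TGATGNAA), through which ATF4 acts. ERSE was found in 8 of 27 windows (29.6%, against 0.119% of 32851 promoter windows of all genes), in Hspa5, Hsp90b1, Dnajc3, Creld2, Pdia6, Calr, Canx and Syvn1. ERSE-II was found in Dnajb11 and Herpud1 (7.41% against 0.0365%) and the UPRE core in Hspa5 alone (3.7% against 2.01%). CARE was found in Atf3, Herpud1, Trib3, Chac1 and Asns (18.5% against 3.97%). The matches listed here did not overlap one another. A match describes the letters of the window and no binding was measured. The genes were listed for their known place in the response, so the higher shares are no independent result.

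Below are the 250 bases before the RefSeq start of 8 genes whose expression is described next, 5′ to 3′ on the gene's own strand with the matches in capitals. They are shown because the same element stands before genes that moved differently with LPS. The RefSeq start can differ from the start of the Ensembl gene to which the FPKM belong. The first 5 carry ERSE, and Hspa5 also the UPRE core further from the start.
Hspa5, chr2:34771840-34772089, plus strand: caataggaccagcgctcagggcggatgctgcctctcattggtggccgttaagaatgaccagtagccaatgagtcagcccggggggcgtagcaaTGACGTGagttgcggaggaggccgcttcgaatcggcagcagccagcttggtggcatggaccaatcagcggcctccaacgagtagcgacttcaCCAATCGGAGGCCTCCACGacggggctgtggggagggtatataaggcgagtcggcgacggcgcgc
Syvn1, chr19:6046326-6046575, plus strand: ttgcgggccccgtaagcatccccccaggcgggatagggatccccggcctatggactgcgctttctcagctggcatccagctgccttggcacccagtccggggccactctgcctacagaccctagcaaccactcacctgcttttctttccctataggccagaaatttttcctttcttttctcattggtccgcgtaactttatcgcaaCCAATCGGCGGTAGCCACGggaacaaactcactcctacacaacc
Pdia6, chr12:17266339-17266588, plus strand: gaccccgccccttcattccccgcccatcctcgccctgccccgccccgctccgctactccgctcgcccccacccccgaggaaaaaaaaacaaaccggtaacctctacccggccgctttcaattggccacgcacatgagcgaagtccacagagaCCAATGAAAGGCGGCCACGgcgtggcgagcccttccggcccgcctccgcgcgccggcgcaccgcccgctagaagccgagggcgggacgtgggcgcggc
Dnajc3, chr14:118937682-118937931, plus strand: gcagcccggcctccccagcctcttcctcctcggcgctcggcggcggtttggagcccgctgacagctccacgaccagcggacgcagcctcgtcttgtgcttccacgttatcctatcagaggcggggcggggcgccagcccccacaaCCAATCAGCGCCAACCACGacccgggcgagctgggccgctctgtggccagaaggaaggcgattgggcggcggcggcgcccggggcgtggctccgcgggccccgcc
Canx, chr11:50325674-50325923, minus strand: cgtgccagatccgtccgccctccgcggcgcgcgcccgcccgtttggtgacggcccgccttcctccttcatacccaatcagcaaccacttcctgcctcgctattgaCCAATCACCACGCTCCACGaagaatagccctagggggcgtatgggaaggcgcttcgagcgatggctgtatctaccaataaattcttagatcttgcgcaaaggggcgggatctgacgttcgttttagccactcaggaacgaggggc
The next carries CARE and, nearer to the start, ERSE-II, and the last 2 carry CARE. In all 3 CARE is read on the opposite strand.
Herpud1, chr8:94386179-94386428, plus strand: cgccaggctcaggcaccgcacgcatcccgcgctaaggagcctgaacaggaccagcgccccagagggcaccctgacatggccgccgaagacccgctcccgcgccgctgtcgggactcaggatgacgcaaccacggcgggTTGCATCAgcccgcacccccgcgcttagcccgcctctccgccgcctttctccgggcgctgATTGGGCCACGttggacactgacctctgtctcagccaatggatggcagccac
Atf3, chr1:191183334-191183583, minus strand: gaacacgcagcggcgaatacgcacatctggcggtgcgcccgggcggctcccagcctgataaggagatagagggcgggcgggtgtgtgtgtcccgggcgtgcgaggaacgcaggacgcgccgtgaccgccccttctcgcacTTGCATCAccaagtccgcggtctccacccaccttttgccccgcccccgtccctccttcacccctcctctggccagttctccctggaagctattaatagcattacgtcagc
Chac1, chr2:119350992-119351241, plus strand: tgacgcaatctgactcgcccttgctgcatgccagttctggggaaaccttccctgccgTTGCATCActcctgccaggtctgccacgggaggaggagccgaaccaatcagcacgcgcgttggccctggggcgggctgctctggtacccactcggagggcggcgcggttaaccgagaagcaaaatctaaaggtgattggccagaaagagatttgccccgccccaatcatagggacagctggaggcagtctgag

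**Figure D2:**
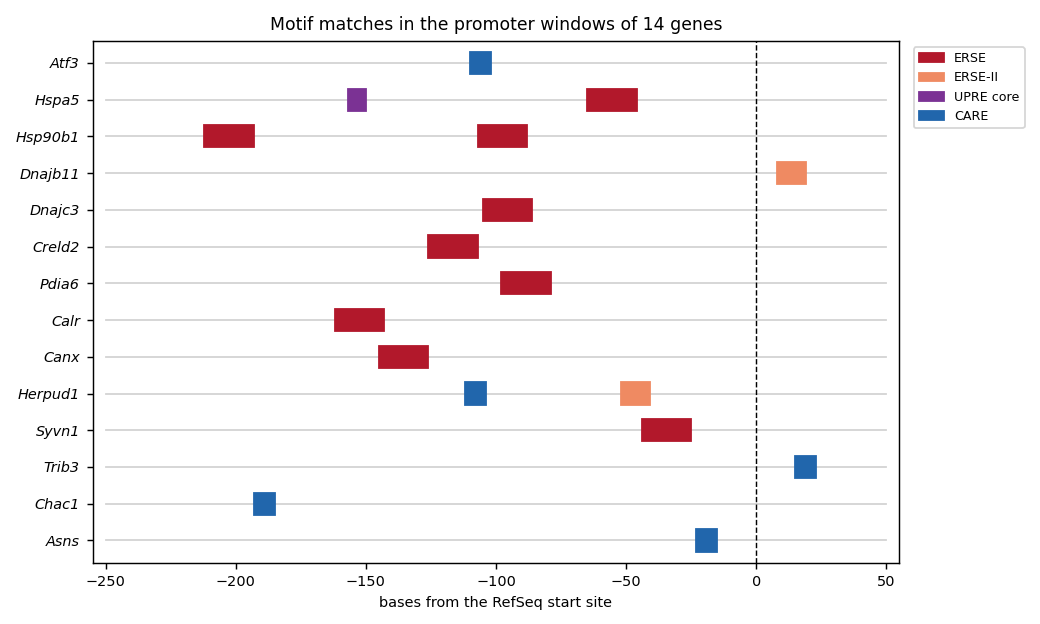
Position of each match in the 300-base windows of the 14 genes with at least 1 match, in bases from the RefSeq start site (dashed line at 0). Hsp90b1 has 2 ERSE matches, and the ERSE match nearest to a start is that of Syvn1, at bases -44 to -26.

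LPS moved 15 of the 30 genes in silenced cells and 16 in control cells, in both directions. In silenced cells 5 rose and 10 fell (limma, Benjamini-Hochberg adjusted p under 0.05 over all genes tested), beside 48.5% of all genes called there, 13.0% higher and 35.5% lower. In control cells 7 rose and 9 fell, beside 48.2% of all genes, 15.3% higher and 32.9% lower. The share of the 30 that moved was near that of all genes in both comparisons. The LPS effect ranged from -1.52 to 2.32 in silenced and from -1.50 to 1.87 in control cells as log2 fold changes of FPKM + 1. The added 1 makes the changes of weakly expressed genes look smaller. The median change of the 30 was -0.13 in silenced and 0.07 in control cells, beside medians of -0.21 and -0.17 over all genes in the same comparisons. With median-ratio scaling between libraries the median of all genes was 0.02 in both kinds of cells. The members then split into 9 higher and 8 lower in silenced and 10 higher and 6 lower in control cells, and the share of calls that were higher over all genes was 51.3% and 53.0%, in place of 26.8% and 31.7%. Under it the called changes of Hspa5 (0.57), Syvn1 (0.71), Hyou1 (-0.25), Dnajb9 (-0.45), Dnajc3 (-0.51) and Canx (-0.31) in silenced cells, and of Pdia6 (0.64), Syvn1 (0.53) and Edem1 (-0.31) in control cells, moved by over 1.5 times and stayed called.

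LPS libraries lay wholly above those without LPS for 5 of the 30 genes in silenced cells (beside 16.0% of all genes) and wholly below for 11 (beside 41.9%). In control cells they did so for 7 (beside 18.2%) and 8 (beside 38.0%). The same 5 genes rose in silenced and control cells, Atf3, Hspa5, Herpud1, Syvn1 and Ppp1r15a, and the same 8 fell in both, Eif2ak3, Atf6, Hyou1, Dnajb9, Dnajc3, Pdia4, Canx and Edem1. Neither LPS comparison called Ern1, Atf4, Ddit3, Dnajb11, Manf, Creld2, Pdia3, Calr, Sel1l, Trib3, Chac1 or Sesn2. The remaining 5 were called with 1 siRNA: Hsp90b1 and Sdf2l1 fell in silenced cells, and in control cells Pdia6 and Asns rose and Xbp1 fell. In bulk libraries a change in RNA per cell and a change in the share of cells expressing a gene cannot be told apart.

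**Figure D3:**
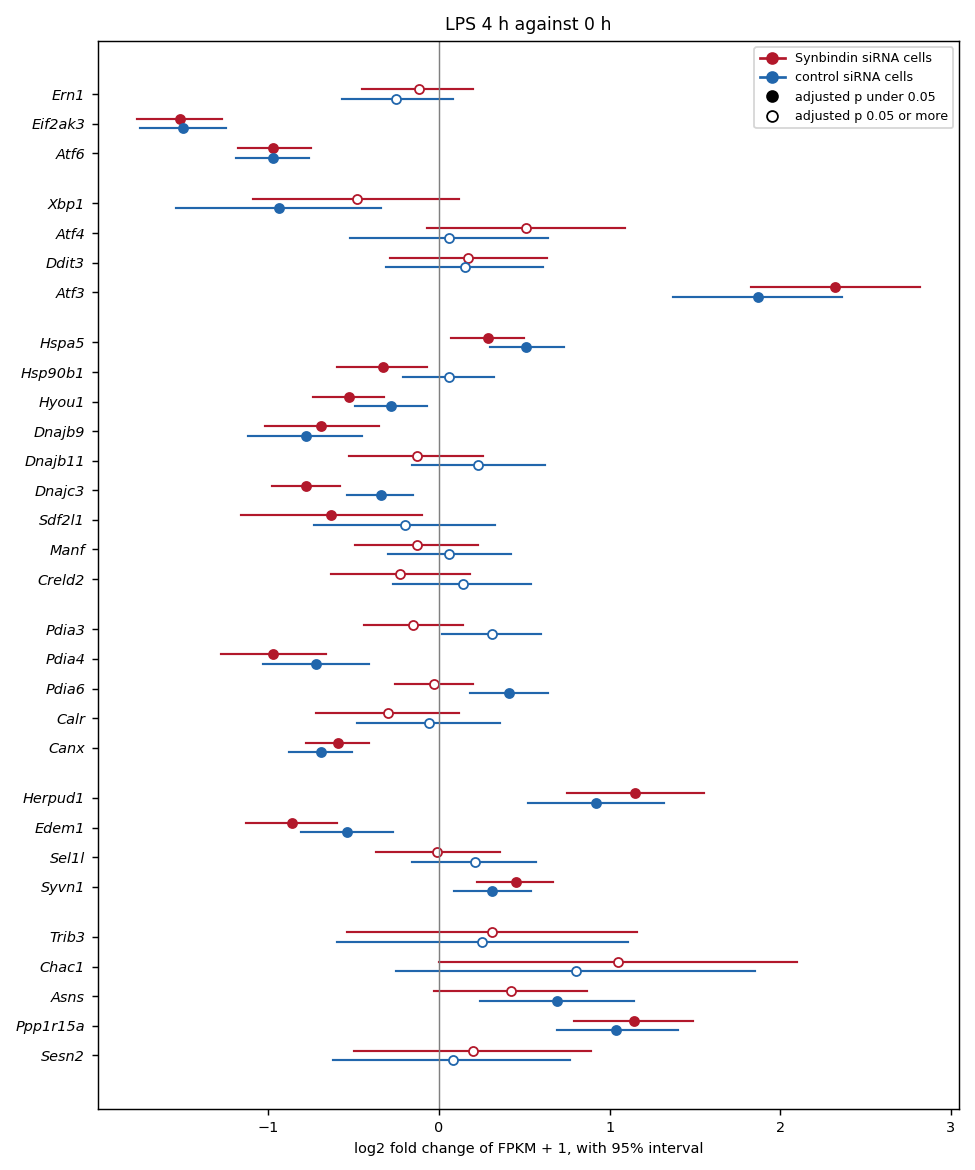
Change of each gene with LPS (4 h against 0 h) as log2 fold change of FPKM + 1 with its 95% interval, silenced cells in red above control cells in blue. Filled points have an adjusted p under 0.05. Eif2ak3 is lowest, at -1.52 in silenced and -1.50 in control cells, and Atf3 highest, at 2.32 and 1.87.

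Of the 3 sensors, transcripts of PERK and ATF6 fell with LPS and that of IRE1 passed in neither comparison. Eif2ak3 (ENSMUSG00000031668, GRCm38 chr6:70844515-70905245, plus strand) had 2.37, 2.25 and 2.15 FPKM in silenced cells with LPS, against 7.85, 8.36 and 8.83 FPKM in silenced cells without it. In control cells it had 2, 2.53 and 1.94 FPKM with LPS and 9.32, 7.38 and 7.16 FPKM without. The groups were far apart at either siRNA, with 0.27 of the untreated mean left in silenced and 0.271 in control cells (log2 fold changes -1.52 ± 0.11 and -1.50 ± 0.11, SE, adjusted p = 1.02e-06 and 1.31e-06, limma). Atf6 (ENSMUSG00000026663, GRCm38 chr1:170704674-170867771, minus strand) had 16.6, 14.4 and 13.7 FPKM with LPS and 29.7, 29.9 and 30.6 FPKM without it in silenced cells. Control cells had 15.3, 16.8 and 16.2 FPKM with LPS and 31.4, 29.4 and 37.3 FPKM without. Every library with LPS was below every library without, with log2 fold changes of -0.97 ± 0.10 in silenced and -0.97 ± 0.10 in control cells (adjusted p = 1.05e-05 and 1.07e-05, limma). Ern1 had 3.42, 3.12 and 3.19 FPKM with and 4.12, 3.45 and 3.34 FPKM without LPS in silenced cells, and the groups overlapped (-0.12 ± 0.15, 95% interval -0.45 to 0.20). In control cells, where its change was -0.25 ± 0.15 (adjusted p = 0.188, limma), it was called once the control library numbered 2 without LPS was left out (-0.39, adjusted p = 0.0428).

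Among the 4 transcription factors, Atf3 made the largest move of all 30 genes and the others were called in 1 comparison at most. Atf3 (ENSMUSG00000026628, GRCm38 chr1:191170296-191218039, minus strand; CARE in its promoter) had 174, 180.5 and 222 FPKM with LPS and 35.7, 31.4 and 46.7 FPKM without in silenced cells, and 106, 95.3 and 149 FPKM with and 30.5, 22.7 and 41.6 FPKM without in control cells. It was 5.07 times as high with LPS in silenced and 3.7 times in control cells (log2 fold changes 2.32 ± 0.23 and 1.87 ± 0.23, adjusted p = 7.54e-06 and 4.29e-05, limma). Xbp1 (ENSMUSG00000020484), whose spliced and unspliced mRNAs share 1 gene-level value here, had 21.9, 25.6 and 42.5 FPKM with LPS and 34.8, 68.5 and 74.3 FPKM without in control cells. The highest LPS library overlapped the lowest library without LPS, and the fall had a log2 fold change of -0.94 ± 0.27 (adjusted p = 0.0147, limma). That call was lost without control library 2 or 3 without LPS or control library 1 with LPS (-0.80 to -0.74, adjusted p = 0.057 to 0.0614) with median-ratio scaling (-0.71, adjusted p = 0.0644) and in a fit of the groups compared alone (adjusted p = 0.0573). In silenced cells Xbp1 had 49.2, 49.6 and 56.5 FPKM with LPS and 68.3, 68.7 and 81.8 FPKM without, which did not overlap but passed only in a fit of those groups alone (adjusted p = 0.00659), not over all libraries (-0.48 ± 0.27, adjusted p = 0.171, limma). Atf4, which encodes the translationally controlled factor of the PERK branch, had 101, 92.7 and 62.5 FPKM with LPS and 72.7, 66.7 and 40.8 FPKM without in silenced cells (0.51 ± 0.26, interval -0.07 to 1.09). In control cells its levels were 70.5, 39.03 and 50.95 FPKM with and 56.4, 53.5 and 40.8 FPKM without LPS (0.06 ± 0.26), and the libraries overlapped with both siRNAs. With median-ratio scaling the silenced value of Atf4 passed (0.79, adjusted p = 0.0259). Ddit3, which encodes CHOP, the factor linked to death under lasting ER stress, stayed between 2.56 and 5.71 FPKM in all 12 libraries. Its LPS change was 0.17 ± 0.21 in silenced and 0.15 ± 0.21 in control cells, with intervals of -0.29 to 0.63 and -0.31 to 0.61.

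The 9 chaperones and co-chaperones split. Hspa5 rose, Hyou1, Dnajb9 and Dnajc3 fell with both siRNAs, and Hsp90b1 and Sdf2l1 fell in silenced cells. Hspa5 (ENSMUSG00000026864, GRCm38 chr2:34771970-34777547, plus strand; ERSE and UPRE core) had 302, 306 and 352 FPKM with LPS and 256, 278 and 250.1 FPKM without in silenced cells. In control cells it had 280.2, 289 and 304 FPKM with LPS and 212, 227 and 176 FPKM without, and every LPS library was the higher. The rise was 0.29 ± 0.10 in silenced and 0.51 ± 0.10 in control cells (adjusted p = 0.0301 and 0.00121, limma). In silenced cells it did not hold without library 1 or 3 of the cells without LPS or library 3 of those with LPS (0.22 to 0.27, adjusted p = 0.0782 to 0.119), nor with quantile normalization (0.06, adjusted p = 0.601) or without the filter on low values (adjusted p = 0.0657).

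Dnajc3 (ENSMUSG00000022136, GRCm38 chr14:118937976-118981697, plus strand; ERSE), a co-chaperone that also inhibits PERK, fell. It had 14.97, 14.8 and 13.3 FPKM with LPS and 23.3, 25.4 and 27.5 FPKM without in silenced cells, and 17.5, 18.96 and 15.9 FPKM with and 22.6, 21.5 and 22.9 FPKM without in control cells. No LPS library reached a library without LPS, and the change was -0.78 ± 0.09 in silenced and -0.34 ± 0.09 in control cells (adjusted p = 2.69e-05 and 0.00764, limma). With median-ratio scaling the control value was -0.12 and no longer called. Dnajb9 (ENSMUSG00000014905), a co-chaperone of BiP that holds IRE1 back, had 2.95, 3.8 and 4.25 FPKM with and 5.22, 6.47 and 7.92 FPKM without LPS in silenced cells. Control cells had 4.11, 3.61 and 3.74 FPKM with and 6.6, 6.82 and 8.6 FPKM without LPS, again without overlap (-0.69 ± 0.15 and -0.78 ± 0.15 in silenced and control cells, adjusted p = 0.00287 and 0.00127, limma). In silenced cells this call was lost under quantile normalization (-0.40). Hyou1 (ENSMUSG00000032115, GRCm38 chr9:44379490-44392369, plus strand, a neighbour of Trappc4 on that chromosome), an ER chaperone that reloads BiP with nucleotide, had 32.5, 29.8 and 26.9 FPKM with and 43.5, 45.97 and 40.5 FPKM without LPS in silenced cells (-0.53 ± 0.10, adjusted p = 0.000862, limma). Control cells had 28.1, 34.6 and 28.4 FPKM with and 36.6, 38.2 and 35.9 FPKM without LPS (-0.28 ± 0.10, adjusted p = 0.0337). The control call was lost in 5 of 12 fits that left out 1 library, each of the 3 control libraries without LPS and control libraries 1 and 3 with LPS (-0.30 to -0.23, adjusted p = 0.0522 to 0.118), with median-ratio scaling (-0.05), without the filter (adjusted p = 0.0508) and in a fit of the groups compared alone (adjusted p = 0.059).

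Hsp90b1 (ENSMUSG00000020048; ERSE), the chaperone on which surface Toll-like receptors depend for folding, had 255, 238 and 208 FPKM with LPS and 291, 302 and 289 FPKM without in silenced cells (-0.33 ± 0.12, adjusted p = 0.0402, limma). In control cells it had 259.8, 287 and 214 FPKM with and 250.3, 269 and 210.3 FPKM without LPS, which overlapped (0.06 ± 0.12). Sdf2l1 (ENSMUSG00000022769), a partner of the co-chaperone Dnajb11, had 59.7, 54.03 and 34.9 FPKM with LPS and 76.1, 81.8 and 68.3 FPKM without in silenced cells (-0.63 ± 0.24, adjusted p = 0.0498, limma), and its change in control cells was -0.20 ± 0.24. Both silenced-cell calls lay close to the threshold. That of Hsp90b1 was lost in 7 of 12 fits that left out 1 library (all silenced libraries without LPS, silenced libraries 2 and 3 with LPS, and control library 1 at both times; -0.35 to -0.25, adjusted p = 0.0519 to 0.149). That of Sdf2l1 was lost in 8 of 12 (the same 7 and control library 2 without LPS; -0.71 to -0.40, adjusted p = 0.0581 to 0.202). With median-ratio scaling neither was called (-0.05 and -0.35), nor without the filter on low values (adjusted p = 0.0912 and 0.118) or without a trend of variance with level (adjusted p = 0.0567 and 0.0591). With median-ratio scaling Hsp90b1 was instead called higher in control cells (0.29, adjusted p = 0.0479). Dnajb11, Manf and Creld2, a co-chaperone and a pair of secreted ER stress-inducible proteins, were not called. Their changes were -0.13, -0.13 and -0.23 in silenced and 0.23, 0.06 and 0.14 in control cells. Dnajb11 in control cells was called without control library 3 with LPS (0.44, adjusted p = 0.0382) and with median-ratio scaling (0.46, adjusted p = 0.0398).

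Of the disulfide isomerases and lectin chaperones, Pdia4 and Canx fell with both siRNAs, and Pdia6 rose in control cells. Pdia4 (ENSMUSG00000025823, GRCm38 chr6:47796141-47813430, minus strand), a disulfide isomerase, had 29.9, 29.3 and 21.8 FPKM with LPS and 60.4, 53.96 and 46.8 FPKM without in silenced cells, and 30.1, 34.7 and 29.1 FPKM with and 58.8, 52.8 and 45.3 FPKM without in control cells. In silenced cells 0.502 of the untreated mean was left and in control cells 0.599 (log2 fold changes -0.97 ± 0.14 and -0.72 ± 0.14, adjusted p = 0.00016 and 0.00143, limma). Canx (ENSMUSG00000020368, GRCm38 chr11:50293961-50325673, minus strand; ERSE), the membrane-bound lectin chaperone calnexin, had 91.4, 87.3 and 86.1 FPKM with and 146, 139.9 and 116 FPKM without LPS in silenced cells. Control cells had 80.4, 86.7 and 84.2 FPKM with and 139.5, 137 and 132 FPKM without it (-0.59 ± 0.08 and -0.69 ± 0.08 in silenced and control cells, adjusted p = 0.000136 and 4.58e-05, limma). The 4 groups of each gene parted cleanly by LPS. Pdia6 (ENSMUSG00000020571, GRCm38 chr12:17266545-17284770, plus strand; ERSE), a disulfide isomerase that works with BiP, had 79.3, 87.3 and 67.9 FPKM with and 61.7, 60.1 and 53.5 FPKM without LPS in control cells (0.41 ± 0.11, adjusted p = 0.00761, limma). In silenced cells its libraries overlapped, with 85.3, 87.6 and 77.03 FPKM with and 88.7, 90.3 and 76.3 FPKM without LPS (-0.03 ± 0.11), and median-ratio scaling gave 0.25 with adjusted p = 0.0486 there. In control cells the call of Pdia6 was lost with quantile normalization (0.21, adjusted p = 0.138). It was also lost when replicate number 1 or replicate number 2 was left out in every group. Pdia3, the isomerase that acts on clients of both lectin chaperones, changed by -0.15 ± 0.13 in silenced and 0.31 ± 0.13 in control cells and passed in neither (adjusted p = 0.38 and 0.0695, limma). The control value of Pdia3 passed without control library 2 without LPS or control library 3 with LPS (0.40 and 0.42, adjusted p = 0.0397 and 0.0252) and with median-ratio scaling (0.55, adjusted p = 0.0029), and its silenced value passed, as lower, with quantile normalization (-0.40, adjusted p = 0.0293). Calr changed by -0.30 ± 0.19 in silenced and -0.06 ± 0.19 in control cells, neither called, and with quantile normalization it was called lower in silenced cells (-0.55, adjusted p = 0.0491).

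Within ERAD the directions also parted: Herpud1 and Syvn1 rose and Edem1 fell, with both siRNAs. Herpud1 (ENSMUSG00000031770, GRCm38 chr8:94386438-94395377, plus strand; ERSE-II and CARE), a membrane component of the ubiquitin ligase complex that exports misfolded proteins from the ER, had 37.8, 36.01 and 30.4 FPKM with LPS and 16.3, 15.4 and 13.5 FPKM without in silenced cells. In control cells it had 28.98, 35.6 and 23.4 FPKM with LPS and 14.5, 19.4 and 11.5 FPKM without. It was 2.31 times as high with LPS in silenced and 1.94 times in control cells, without overlap (log2 fold changes 1.15 ± 0.18 and 0.92 ± 0.18, adjusted p = 0.000302 and 0.00152, limma). Syvn1 (ENSMUSG00000024807, GRCm38 chr19:6046576-6053712, plus strand; ERSE), the ubiquitin ligase of that complex, had 13.2, 14.4 and 16.02 FPKM with and 9.37, 11.3 and 10.4 FPKM without LPS in silenced cells, and 13.4, 14.3 and 14.2 FPKM with and 12.4, 10.8 and 10.1 FPKM without in control cells. All LPS libraries were the higher ones (0.45 ± 0.10 and 0.31 ± 0.10 in silenced and control cells, adjusted p = 0.00344 and 0.0247, limma). The control call was lost without control library 2 or 3 at either time (0.25 to 0.30, adjusted p = 0.062 to 0.0877). Edem1 (ENSMUSG00000030104, GRCm38 chr6:108828641-108859356, plus strand), which picks misfolded glycoproteins for degradation, had 55.2, 55.97 and 38.3 FPKM with and 91.1, 91.2 and 88.3 FPKM without LPS in silenced cells. Control cells had 51.8, 54.5 and 48.3 FPKM with and 75.6, 75.1 and 75.2 FPKM without. All LPS libraries were the lower ones (-0.86 ± 0.12 and -0.54 ± 0.12 in silenced and control cells, adjusted p = 0.000123 and 0.00324, limma). Sel1l, the adaptor of Syvn1, had changes of -0.01 ± 0.17 and 0.21 ± 0.17 in silenced and control cells, neither called.

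Of the 5 targets of the integrated stress response, Ppp1r15a rose with both siRNAs and Asns in control cells. Ppp1r15a (ENSMUSG00000040435, GRCm38 chr7:45522916-45526268, minus strand), which brings a phosphatase to eIF2 and so restores translation, had 12.7, 15.6 and 10.8 FPKM with LPS and 4.39, 5.61 and 6.02 FPKM without in silenced cells. In control cells it had 11.8, 12.3 and 13.8 FPKM with LPS and 4.53, 6.89 and 5.57 FPKM without. Its mean was 2.44 times as high with LPS in silenced and 2.23 times in control cells, without overlap (log2 fold changes 1.14 ± 0.16 and 1.04 ± 0.16, adjusted p = 0.000122 and 0.000247, limma). Asns (ENSMUSG00000029752; CARE), asparagine synthetase, had 56.99, 52.2 and 78.5 FPKM with and 35.8, 35.1 and 42.6 FPKM without LPS in control cells (0.69 ± 0.21, adjusted p = 0.0153, limma), which fell short without control library 3 with LPS (0.52, adjusted p = 0.0652) and with quantile normalization (0.52, adjusted p = 0.0683). In silenced cells its values overlapped, 57.7, 52.7 and 77.8 FPKM with and 38.7, 40.4 and 61.5 FPKM without LPS (0.42 ± 0.21), and passed when silenced library 3 without LPS was left out (0.63, adjusted p = 0.0208) and with median-ratio scaling (0.70, adjusted p = 0.0223). Chac1 (ENSMUSG00000027313; CARE), which breaks down glutathione, had 8.15, 7.53 and 3.14 FPKM with and 3.19, 2.28 and 1.63 FPKM without LPS in silenced cells, and 5.15, 6.11 and 1.7 FPKM with and 3.52, 2.56 and 0.399 FPKM without in control cells. The libraries numbered 3 were the lowest of each group, and the changes of 1.05 ± 0.48 and 0.80 ± 0.48 did not pass (adjusted p = 0.0904 and 0.191, limma). The silenced value of Chac1 passed without silenced library 3 with LPS or control library 3 without it (1.42 and 1.05, adjusted p = 0.0432 and 0.0451), under quantile normalization (1.30), under median-ratio scaling (1.27) and in a fit of the groups compared alone (adjusted p = 0.0302). Trib3, an inhibitor of ATF4 output, and Sesn2, a sestrin that restrains the growth kinase mTORC1, were not called. Trib3 changed by 0.31 ± 0.39 in silenced and 0.25 ± 0.39 in control cells, and Sesn2 by 0.20 ± 0.32 and 0.08 ± 0.32.

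The LPS effect was next compared between silenced and control cells as a difference of the log2 changes. None of the 30 genes passed (limma, beside 0.0612% of all genes, 0.0382% of them higher and 0.0229% lower). At an unadjusted p under 0.05 there were 4. These were Dnajc3 (-0.44 ± 0.13, adjusted p = 0.292), Pdia6 (-0.44 ± 0.15, adjusted p = 0.332), Pdia3 (-0.46 ± 0.19, adjusted p = 0.39) and Hsp90b1 (-0.39 ± 0.17, adjusted p = 0.426), all by limma and all lower in silenced cells. The share of all genes at that unadjusted threshold was not computed. Of the 9 chaperones and co-chaperones 8 had a negative difference (median -0.36) and all 4 transcription factors a positive one (median 0.45, but 0.02 for Ddit3), beside a median of -0.03 over all genes. The signs over all genes were not counted. By construction each difference also separates the silencing estimates of the 2 times, whose medians over the 9 chaperones were 0.29 without LPS and -0.06 after LPS. The intervals were wide. For Atf3 the difference was 0.45 with an interval of -0.25 to 1.15, for Xbp1 0.45 with -0.40 to 1.31, and for Hspa5 -0.22 with -0.53 to 0.08. Leaving out 1 library gave 0.24 to 0.66 for Atf3, 0.26 to 0.79 for Xbp1 and -0.30 to -0.12 for Hspa5. Canx, Atf6 and Eif2ak3 had differences of 0.10, 0.01 and -0.02. Their intervals (-0.16 to 0.36, -0.30 to 0.31 and -0.37 to 0.34) were narrower than those of Atf3 and Xbp1. The 5 genes called with 1 siRNA alone are therefore not shown to respond differently with the other.

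Silencing of Synbindin called none of the 30 genes at either time (limma), nor Trappc4 itself, beside 0.214% of all genes without LPS (0.122% higher, 0.0918% lower) and 0.719% after LPS (0.314% higher, 0.405% lower). The split of all genes called after LPS, 41 higher and 53 lower, turned to 52 higher and 34 lower with median-ratio scaling and to 28 higher and 10 lower with quantile normalization. Without LPS the estimates leaned upward. In silenced cells 22 of 30 genes had a higher estimate than in control cells, with a median of 0.22 beside 0.01 over all genes. The signs over all genes were not counted. All 30 estimates come from the same libraries, so the genes are not separate observations. An unadjusted p under 0.05 was found for 5, and the share of all genes there was not computed. In 9 of the 30 genes (beside 9.86% of all genes) every silenced library was above every control library, and in none was every silenced library below (beside 8.35%). The 9 were the chaperones Hspa5, Hsp90b1, Hyou1, Dnajc3, Sdf2l1 and Creld2, the isomerases Pdia3 and Pdia6, and Edem1. Across these libraries the summed level of the macrophage markers was also higher with silencing at both times, as given above. One by one, 7 of the 10 markers had the higher mean in silenced cells without LPS and 6 after LPS. All silenced libraries were above all control libraries for Lyz2 and Cd14 without LPS (beside 9.86% of all genes). After LPS this was so for Ptprc, Lyz2 and Fcgr1 (beside 7.62% of all genes). Lyz2 weighs most in the summed level, with a median of 711 FPKM and a range of 435 to 1340 FPKM over all libraries. The part of these markers in the results of silencing was not tested.

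Pdia6 had the largest estimate, with 88.7, 90.3 and 76.3 FPKM in silenced and 61.7, 60.1 and 53.5 FPKM in control cells without LPS. All 3 silenced libraries were above all 3 control libraries. Its log2 fold change was 0.53 ± 0.11 (95% interval 0.30 to 0.77, adjusted p = 0.0801, limma), and leaving out the libraries numbered 3 in every group brought it below the threshold (0.55, adjusted p = 0.0383). With a block for the replicate number Pdia6 was also called (adjusted p = 0.0192, limma). These were the only 2 of 22 alternative fits that called it, and in the others its adjusted p reached 0.655 (limma). Pdia3 had 184, 201 and 178 FPKM in silenced and 148, 163 and 123.9 FPKM in control cells (0.38 ± 0.13, adjusted p = 0.303). Hspa5, with the values given above, had 0.35 ± 0.10 (interval 0.14 to 0.57, adjusted p = 0.203). For Creld2 the levels were 47.3, 49.7 and 41.7 FPKM in silenced and 37.8, 41.4 and 28.6 FPKM in control cells (0.37 ± 0.18, adjusted p = 0.461). The groups of Creld2 lay side by side with little room between them: its lowest silenced library, 41.7 FPKM, was next to its highest control library, 41.4 FPKM. Edem1, at 91.1, 91.2 and 88.3 FPKM in silenced and 75.6, 75.1 and 75.2 FPKM in control cells, held closely together within both groups (0.26 ± 0.12, adjusted p = 0.438). Hsp90b1, Hyou1, Sdf2l1 and Dnajc3 had estimates of 0.28, 0.22, 0.36 and 0.17 with adjusted p = 0.399, 0.399, 0.591 and 0.475. Of the sensors, Ern1 had -0.20 (interval -0.52 to 0.13), Eif2ak3 0.07 (-0.18 to 0.32) and Atf6 -0.11 (-0.33 to 0.10). Among the 4 transcription factors the estimates ran from 0.05 for Ddit3 to 0.36 for Xbp1, and leaving out 1 library moved them to between -0.16 and 0.25 for Ddit3 and between 0.03 and 0.56 for Xbp1. Neither Herpud1 (0.02, interval -0.38 to 0.42) nor Ppp1r15a (-0.07, -0.42 to 0.29), which rose with LPS, was near a call.

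After LPS the median of the 30 estimates was 0.00, beside -0.03 over all genes, with 16 above and 14 below zero. There were 4 at an unadjusted p under 0.05 (share of all genes not computed). Silenced libraries lay wholly above control libraries for 2 genes (beside 7.62% of all genes), Xbp1 and Atf3, and wholly below for Dnajc3 (beside 11.3%). Xbp1 had 49.2, 49.6 and 56.5 FPKM in silenced and 21.9, 25.6 and 42.5 FPKM in control cells with LPS (0.82 ± 0.27, interval 0.22 to 1.42, adjusted p = 0.226, limma). Atf3 had 174, 180.5 and 222 FPKM in silenced and 106, 95.3 and 149 FPKM in control cells (0.73 ± 0.23, interval 0.24 to 1.22, adjusted p = 0.183). With a block for the replicate number Atf3 was called (adjusted p = 0.0177, limma). That was the only 1 of 22 alternative fits to call it, and in the others its adjusted p reached 0.679 (limma). For Atf4, at 101, 92.7 and 62.5 FPKM in silenced and 70.5, 39.03 and 50.95 FPKM in control cells, 1 silenced library fell inside the control range (0.67 ± 0.26, adjusted p = 0.299). So 3 of the 4 transcription factors had estimates of 0.67 to 0.82, while Ddit3 had 0.06. Dnajc3 had 14.97, 14.8 and 13.3 FPKM in silenced and 17.5, 18.96 and 15.9 FPKM in control cells (-0.26 ± 0.09, adjusted p = 0.236). The 9 genes whose silenced libraries all lay higher without LPS had estimates of -0.26 to 0.13 after LPS. Comparisons at the 2 times share no library with each other, but each shares its libraries with an LPS comparison above.

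**Figure D4:**
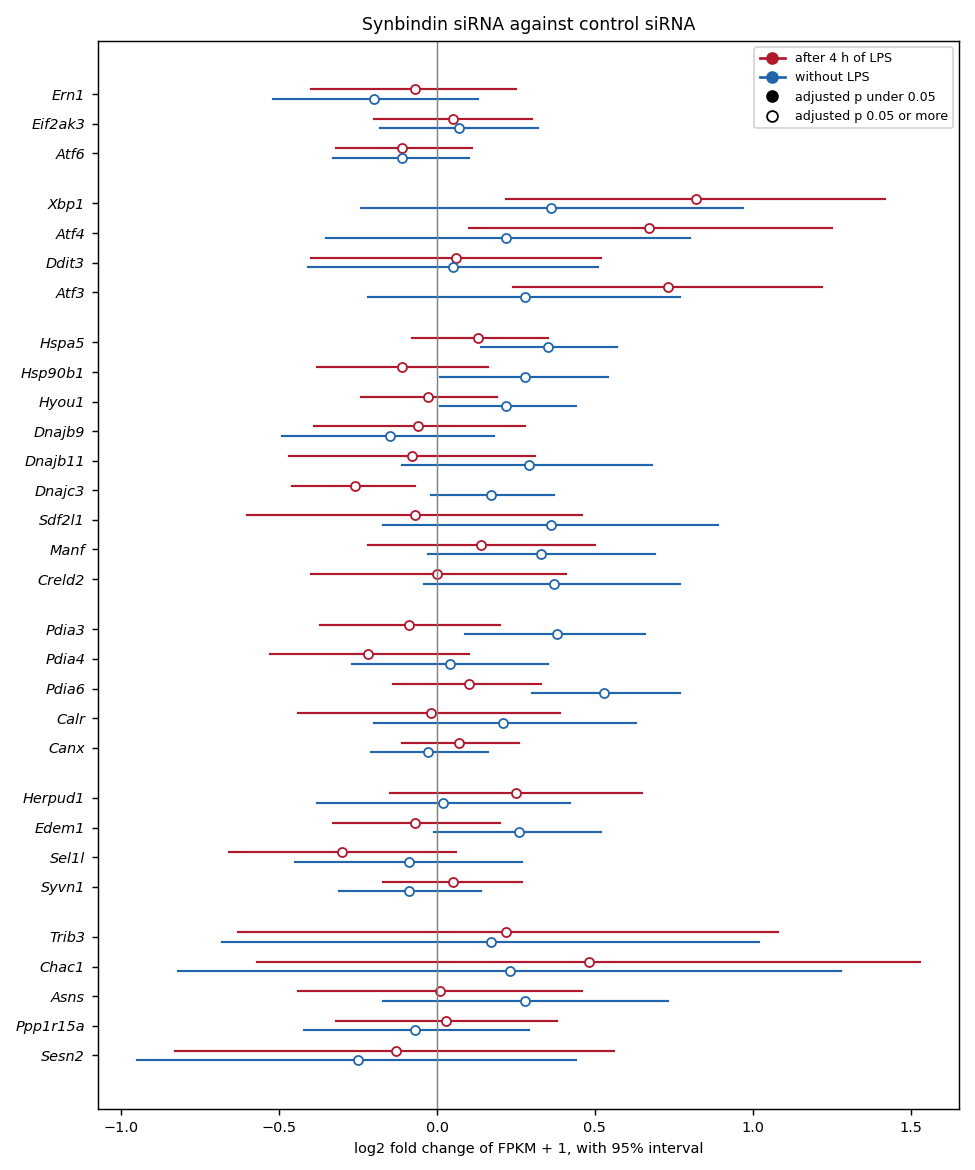
Synbindin siRNA against control siRNA for each gene as log2 fold change of FPKM + 1 with its 95% interval, after 4 h of LPS in red above no LPS in blue. No point is filled, since no gene had an adjusted p under 0.05. The largest estimates are Xbp1, 0.82 after LPS, and Pdia6, 0.53 without LPS.

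The 30 genes differed in how tightly the 3 libraries of a group held together. The SD within groups on the log2(FPKM + 1) scale had a median of 0.22 over the 30 genes and of 0.18 over all genes tested. Canx and Dnajc3 were the tightest at 0.10, and Chac1 (0.69), Trib3 (0.55), Sesn2 (0.44) and Xbp1 (0.39) the loosest. Part of this spread went with the replicate number. The library numbered 3 was the lowest of its group in all 4 groups for 11 of 30 genes (36.7%, against 5.96% of all genes tested), which were Hsp90b1, Dnajb11, Sdf2l1, Creld2, Pdia3, Pdia4, Pdia6, Calr, Herpud1, Trib3 and Chac1. It was the highest in all 4 groups for Xbp1, Atf3 and Asns (10.0% against 3.43%). The median deviation of the 30 genes from their group mean in the libraries numbered 3 was -0.12 in silenced and -0.09 in control cells after LPS, and -0.09 in silenced and -0.12 in control cells without LPS, beside -0.03 to 0.00 over all genes. The labels give the number no meaning such as a day or batch, and its part in these results was not tested beyond the fits without it and with it as a block.

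**Figure D5:**
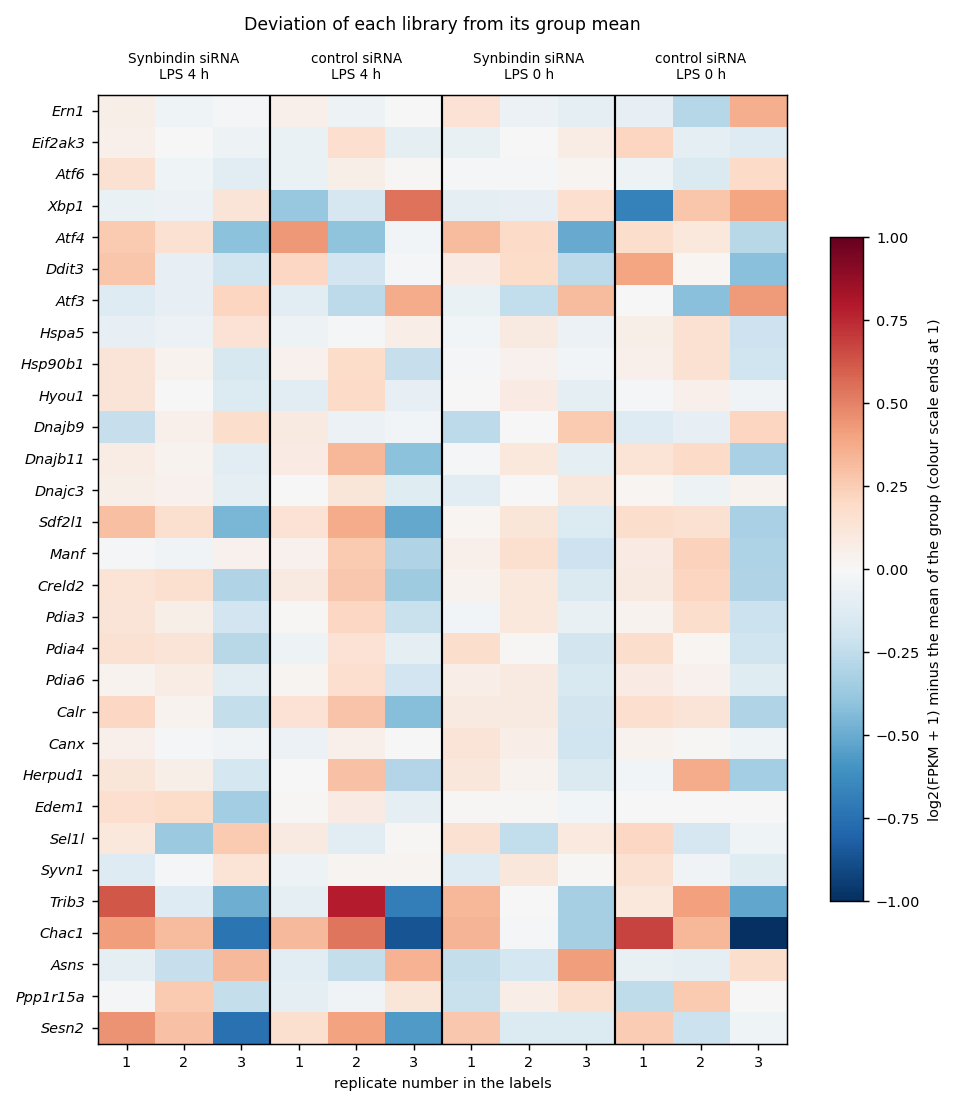
Deviation of each library from its group mean in log2(FPKM + 1), with genes in rows by role and libraries in columns by group and replicate number. Red is above and blue below the mean, and the colour scale ends at 1. The columns numbered 3 are blue for most chaperones and isomerases in all 4 groups, with median deviations of -0.12 to -0.09 over the 30 genes, and red for Xbp1, Atf3 and Asns.

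Around the 30 genes, 135 further genes of the pathway were listed in 6 groups, of which 130 were tested. With LPS, 15 rose and 31 fell in silenced cells (beside 13.0% and 35.5% of all genes), and 38 rose and 28 fell in control cells (beside 15.3% and 32.9%). Genes of the integrated stress response and ATF4 targets had 8 higher and 7 lower of 33 in silenced and 12 higher and 6 lower in control cells. The highest was Jdp2, a repressor of the AP-1 family, at 212 ± 20.3 FPKM with and 19.4 ± 5.48 FPKM without LPS in silenced cells and at 332 ± 16.0 with and 23.5 ± 5.8 without in control cells (SD, n = 3 each; log2 fold changes 3.42 and 3.79, adjusted p = 1.44e-07 and 7.51e-08, limma). Slc7a11, the cystine transporter, rose by 1.90 on the log2 scale in silenced and 2.03 in control cells. Sqstm1, an autophagy receptor, rose by 1.88 in control cells. The kinases that share the eIF2 target with PERK parted: Eif2ak2, the kinase activated by double-stranded RNA, rose by 2.81 in silenced and 2.15 in control cells, and Eif2ak4, the sensor of amino acid lack, fell (log2 fold changes -1.43 and -1.47). Creb3l2, an ER-membrane transcription factor related to ATF6, fell (-1.63 in silenced and -1.38 in control cells), and so did Map3k5, a stress kinase downstream of IRE1 (-1.29 and -1.39). Bcl2l11, a cell death gene, rose by 1.95 and Eif2b4, a subunit of the exchange factor of eIF2, fell by 0.79 in silenced cells, and Bbc3, another cell death gene, fell by 1.18 in control cells. Sqstm1, Bcl2l11, Eif2b4 and Bbc3 are given for 1 siRNA under the rule that named at most 4 called genes per direction and comparison. Their values with the other siRNA are not given, so no difference between silenced and control cells is shown. For the other ER folding and redox genes 1 rose and 5 fell of 21 in silenced and 6 rose and 4 fell in control cells. The translocon, signal peptidase and oligosaccharyltransferase list had 1 higher and 4 lower of 25 in silenced and 6 higher and 3 lower in control cells. Other ERAD genes had 0 higher and 3 lower of 21 in silenced and 5 higher and 4 lower in control cells. The list of eIF2 kinases, a phosphatase subunit, exchange factor subunits and related genes had 2 higher and 6 lower of 13 in silenced and 4 higher and 5 lower in control cells. The last list, of other sensors, their processing enzymes and ER stress death genes, had 3 higher and 6 lower of 17 in silenced and 5 higher and 6 lower in control cells. None of the 130 passed the test of the difference of the LPS effect between silenced and control cells (limma). An unadjusted p under 0.05 was found for 25, and the share of all genes there was not computed.

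With silencing none of the 130 was called at either time (limma). Without LPS, 23 had an unadjusted p under 0.05, the median was 0.08 beside 0.01 over all genes, and 32 had all silenced libraries higher and 7 all lower (beside 9.86% and 8.35% of all genes). The ER folding and redox list held the highest median, 0.18, with 18 of 21 estimates positive and 10 genes with all silenced libraries above all control libraries. The signs over all genes were not counted, and these genes too share their libraries. After LPS, 19 had an unadjusted p under 0.05 and the median was -0.03, that of all genes. The share of all genes at an unadjusted p under 0.05 was computed at neither time.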

How the data were processed

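Expression was measured by RNA-seq in 12 libraries of RAW264.7 cells, 3 in each of 4 groups set by the sample labels. The deposited table gives FPKM made by the authors, 1 column per library and 1 row per Ensembl gene, without counts. GRCm38 as the build and the tools StringTie and HISAT2 come from the submitters' processing notes, which give no versions or roles, and the annotation release is not given in the sources used here. Per the labels, the libraries were strand-specific. Depth is not stated. The smallest steps between FPKM values gave a rough estimate of 7.35M to 17.62M fragments per library, which was used in no test.

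The 13078 genes with an FPKM of 1 or more in 3 or more libraries were tested as log2(FPKM + 1), a pseudocount of 1, with limma 3.58.1 in R 4.3.3. A linear model of 4 group means over all 12 libraries was fitted with empirical Bayes moderation and a trend of variance with level, and 5 contrasts were read from it. P-values were adjusted by Benjamini-Hochberg over all genes tested within a contrast, and adjusted p under 0.05 was called. Every adjusted p printed is of this kind and the ± beside a log2 fold change is its standard error, with 95% intervals unadjusted. The fit was tested on simulated data. Alternatives were a pseudocount of 0.1, no filter, quantile normalization, median-ratio scaling, a block for the replicate number, only the groups compared, no variance trend and leaving out each library, and, added after seeing the data, leaving out 1 replicate number in every group. Promoter windows were RefSeq's (GRCm38.p6), and gene coordinates are those of the Ensembl gene models on GRCm38.

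The 30 genes, their roles and the pathway lists were chosen with earlier results of these data known. All 30 genes are named. From the pathway lists the text names, per comparison, at most 4 called genes in each direction with the largest changes and a mean of 5 FPKM or more in a group compared. Gene-level FPKM do not separate the spliced from the unspliced Xbp1 mRNA.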

Additional observations from a re-analysis of the deposited data

How the results depend on the processing

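The members' LPS calls numbered 12 to 20 in silenced cells and 14 to 18 in control cells over the alternative scalings, filters and models, against 15 and 16 as reported. Leaving out 1 library gave 12 to 16 in silenced and 13 to 16 in control cells, and leaving out 1 replicate number in every group 12 to 17 and 11 to 16. At least 1 fit of the latter kind ended the calls of Hspa5, Hsp90b1 and Sdf2l1 in silenced cells. In control cells the calls so ended were those of Xbp1, Hyou1, Dnajc3, Pdia6, Syvn1 and Asns. Without number 3 in every group, Calr, Chac1 and Asns were newly called in silenced cells and Pdia3 and Chac1 in control cells. Over all 22 alternatives 11 of the 15 calls in silenced cells and 10 of the 16 in control cells held in every one, and no called value changed sign. Pdia6 in silenced cells, -0.03 with LPS and not called as reported, was called with the opposite sign under median-ratio scaling (0.25), and the cause was not tested. Other uncalled LPS values also changed sign there without being called, such as Ern1 (-0.12 as reported, 0.09) and Pdia3 (-0.15 as reported, 0.13) in silenced cells. For silencing, the members called stayed at 0 at both times when 1 library was left out, and were 0 to 1 without LPS when 1 replicate number was left out in every group. The same-number correlations of deviations from the group means ran from -0.0274 to 0.189, so the replicate numbers were not taken to pair the libraries, although 10 of 12 libraries correlated best with their own number. With the replicate block, members called were 1 without LPS (Pdia6, adjusted p = 0.0192) and 1 after LPS (Atf3, adjusted p = 0.0177), 20 and 18 for LPS in silenced and control cells (adding Atf4, Creld2, Calr, Chac1 and Asns in silenced and Pdia3 and Chac1 in control cells), and 0 for the difference of the LPS effect. Counts of all genes called for silencing and for the difference of the LPS effect also moved. For silencing without LPS they were 28 as reported, 48 with the replicate block, 6 in a fit of the groups compared alone, 10 without a variance trend, 3 to 41 when 1 library was left out and 1 to 62 when 1 replicate number was left out in every group. After LPS they were 94 as reported, 38 with quantile normalization, 0 in a fit of the groups compared alone, 50 without a variance trend, 10 to 91 when 1 library was left out and 0 to 33 when 1 replicate number was. For the difference of the LPS effect 8 genes were called, 5 with a pseudocount of 0.1, 4 without a variance trend, 0 to 20 when 1 library was left out and 0 to 2 when 1 replicate number was. The causes of these shifts were not tested. FPKM carry no counts, so no counting error can be set beside low values such as those of Eif2ak3, Trib3 and Chac1.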
